A study of Homo sapiens with 20 samples.

Results

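Cells of LNCaP, an established prostate cancer line of human origin that grows with androgen, were arrested either in S phase or in early G1 and their transcripts measured on Affymetrix gene arrays. The S arrests were early S, made with aphidicolin, an inhibitor of replicative DNA polymerases, and late S, made with hydroxyurea, an inhibitor of ribonucleotide reductase. Early G1 was held with PD-0332991 (palbociclib), an inhibitor of the kinases CDK4 and CDK6. The members were the 2 arrays titled early S, the 3 titled late S and the 3 titled early G1, which is 8 of the 20 arrays of the series. The S arrests were pooled with equal weight for each drug.

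All 8 arrays shared the cell line, a hormone-proficient medium, a 24 h exposure to the drug and 10 nM dihydrotestosterone (DHT), the active androgen, for the last 3 h. Early S cells received aphidicolin at 2 µg/mL, late S cells hydroxyurea at 1 mM and early G1 cells PD-0332991 at 0.5 µM. The question the comparison addresses is how stalled replication differs from a block before S phase when hormone and medium are the same. None of the 8 arrays is from untreated cells. The nearest unarrested cells with DHT were 3 arrays of cells kept 72 h in CDT medium and then given 10 nM DHT for 3 h (CDT + DHT), and their medium differs. CDT cells without DHT received ethanol for 3 h. The arrest names are those of the titles, and no measure of DNA content was used here. Nothing in the labels tells whether the replicates came from separate cultures. The p-values therefore cover only how arrays differed from each other, which may be technical. In bulk RNA, fewer cells with a transcript and less of it per cell cannot be told apart.

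A cell with stalled replication forks carries stretches of single-stranded DNA that activate the kinase ATR, while broken forks activate ATM. Both stabilise p53, which LNCaP cells carry in its normal form, and p53 then raises transcription of genes that stop the cell cycle, repair DNA or kill the cell. A CDK4/6 inhibitor acts without DNA damage: the RB protein stays bound to E2F factors, and genes for DNA synthesis and cell division are held low.

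Values are given as log2(intensity + 1), so that 1 unit is about a 2-fold difference, which is understated where intensities are low. Median intensities of the 8 arrays ran from 6.15 in late S replicate 1 to 9.08 in late S replicate 2, both in the same group. Over the 5879 brighter genes (mean log2 of at least 4), arrays of 1 group correlated with r of 0.608 to 0.826 (7 pairs), and S arrays with early G1 arrays with r of 0.542 to 0.904 (15 pairs). The lowest pairs within a group were late S replicates 1 and 2 (0.608) and early G1 replicates 1 and 2 (0.657). Over these genes 1 shared axis held 49.9% of the variance of the 20 arrays around their group means. Late S replicate 1 (1.93), early G1 replicate 2 (1.67) and early S replicate 1 (0.90) scored high on it. Late S replicate 2 (-1.84), early G1 replicate 1 (-1.12) and early S replicate 2 (-0.90) scored low. Replicate scatter of single genes is therefore not independent between genes, and its source was not tested. Of 12 luminal prostate markers tested, 9 reached a mean log2 of at least 4 over the 20 arrays. The brightest, KLK3, which encodes prostate-specific antigen, lay between 9.06 and 10.85 on the 8 arrays. SLC45A3, TRPM8 and KRT19 were dim, with medians of 3.88, 3.70 and 2.60 on the 8 arrays. The summed intensity of 12 luminal markers was 1438 to 2396 in the S arrays and 1881 to 3496 in early G1. A mean log2 of at least 4 over the 20 arrays was reached by 0 of 6 basal epithelial markers, 0 of 14 leukocyte markers and 1 of 13 stromal markers, DES. The summed leukocyte list was 103 to 117 in early S, 133 to 162 in late S and 67.8 to 113 in early G1, while PTPRC, the pan-leukocyte antigen CD45, lay between 1.64 and 3.80. CD68, a macrophage and lysosome marker of that list, measured 5.22 and 5.05 in early S, 3.96, 6.27 and 6.04 in late S, and 4.06, 1.87 and 5.04 in early G1, a difference of 1.62 ± 0.72 that did not pass. The part of these markers in the results was not tested.

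The S arrests stood above early G1 at 5 genes, and 4 of these are known p53 targets. SFN, IER3, CDKN1A, TP53I3 and DDB2 rose by 2.38 to 4.01 on the log2 scale, and every one of the 5 S arrays lay above all 3 early G1 arrays for each of them. No gene fell. The 5 genes are 0.0271% of the 18417 tested (limma with Benjamini-Hochberg adjustment over all genes, threshold 0.05), and those lower are 0%. At an unadjusted p under 0.05 limma gave 260 higher (1.41%) and 163 lower (0.885%). The S arrays lay wholly above early G1 at 188 genes (1.02%) and wholly below at 103 (0.559%). Over all genes the median difference was -0.01, with 49.6% above 0, quartiles of -0.36 and 0.37 and a median standard error of 0.65. The p53 targets were among genes listed with earlier results of these data known.

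**Figure D1:**
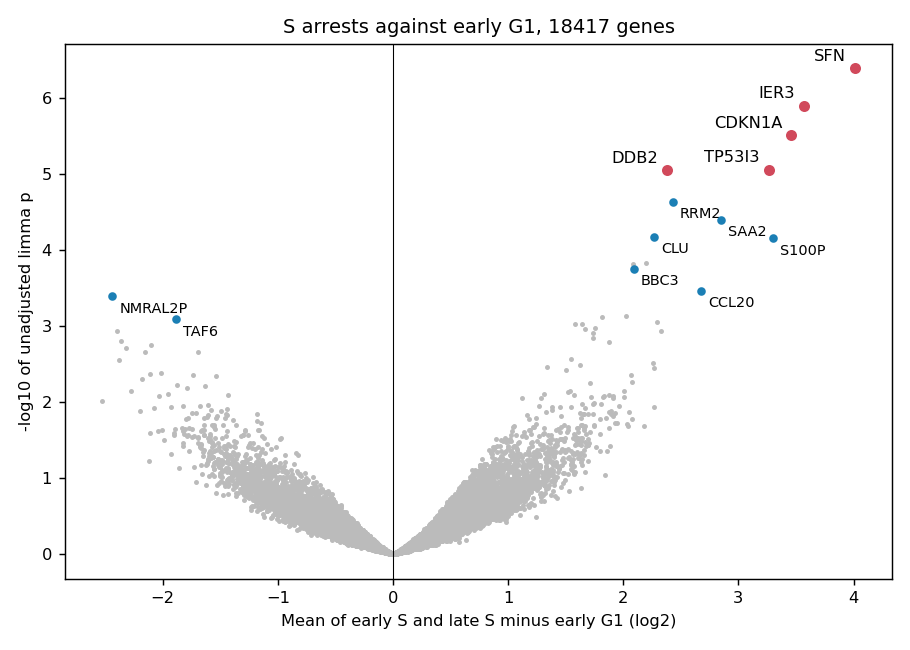
Each point is 1 of 18417 genes: the x axis is the mean of early S and late S minus early G1 (log2), and the y axis is -log10 of the unadjusted limma p. Red points are the 5 genes past the adjusted threshold of 0.05, all to the right, and blue points are other genes named in the text, none of which passed.

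SFN encodes 14-3-3 sigma, which keeps the mitotic kinase complex in the cytoplasm and so holds cells before mitosis. Its transcript (transcript cluster 7899265) measured 7.83 and 7.13 in early S, 8.20, 8.39 and 8.32 in late S, and 3.25, 4.03 and 4.37 in early G1. The lowest S array was thus well clear of the highest early G1 array. The difference was 4.01 ± 0.54 (SE), a 16.1-fold rise on this scale, with an adjusted p of 0.00754 by limma; with a constant of 16 it was 3.07.

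CDKN1A encodes p21, the inhibitor of cyclin-dependent kinases through which p53 stops the cell cycle. It measured 8.43 and 8.54 in early S, 8.34, 8.94 and 9.28 in late S, and 4.26, 5.16 and 6.23 in early G1 (cluster 8119088). The S arrays were close together, while the early G1 arrays were spread over about 2 units. The rise was 3.46 ± 0.53 (SE) at an adjusted limma p of 0.0188.

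TP53I3 encodes PIG3, a quinone oxidoreductase linked to oxidative stress and p53-dependent death. Its levels were 5.86 and 5.74 in early S, 5.17, 6.97 and 6.78 in late S, and 3.00, 1.87 and 3.51 in early G1 (cluster 8050702). Late S replicate 1 was the lowest of the S arrays and still above early G1. TP53I3 rose by 3.26 ± 0.54 (SE; adjusted limma p 0.0328), and by 1.88 with a constant of 16.

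DDB2 encodes the damage-sensing subunit of nucleotide excision repair, which finds ultraviolet lesions in chromatin. It measured 6.58 and 6.48 in early S, 7.02, 7.48 and 7.43 in late S, and 4.28, 4.20 and 5.16 in early G1 (cluster 7939738). Early G1 replicate 3 came nearest to the S arrays. The rise of 2.38 ± 0.40 (SE) had the same adjusted limma p of 0.0328 and was 1.82 with a constant of 16.

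IER3, an immediate early gene whose product modulates survival under stress, was the only one of the 5 outside the p53 lists. Its levels were 4.93 and 5.13 in early S, 6.22, 6.44 and 6.49 in late S, and 2.27, 1.88 and 2.27 in early G1 (cluster 8124848). Arrays of each group were tight, and the order was late S, early S, early G1 with no overlap. The rise was 3.57 ± 0.51 (SE), with an adjusted limma p of 0.0116. Its early G1 levels are dim, and with a constant of 16 the difference was 1.82.

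**Figure D2:**
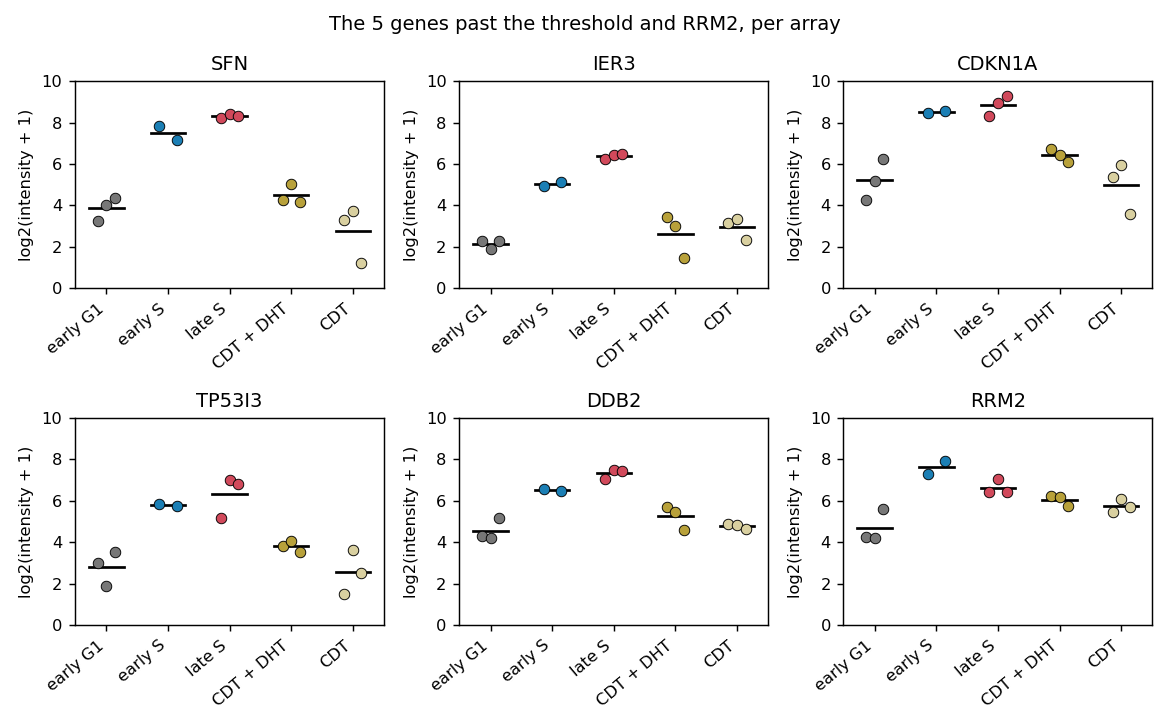
Each panel plots 1 gene, with log2(intensity + 1) on the y axis for every array of early G1, early S, late S, CDT + DHT and CDT, and a bar at each group's mean. For SFN, IER3, CDKN1A, TP53I3 and DDB2 the 5 S arrays lie above all 3 early G1 arrays; RRM2, shown beside them, has the same separation but an adjusted p of 0.0715.

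The promoters of the genes that rose are shown next. The genes were selected for rising in this comparison, so their shared direction is no separate result. Each run is the 250 bases before the annotated start, on the gene's strand, from RefSeq (GRCh38.p14). Windows were found for 4 of the 5 genes and not for IER3. They lie at chr1:26862899-26863148 (SFN, plus strand), chr6:36678464-36678713 (CDKN1A, plus strand), chr2:24084835-24085084 (TP53I3, minus strand) and chr11:47214204-47214453 (DDB2, plus strand). Capitals mark GGGCGG, the GC box, and CCAAT, the CCAAT box, on either strand.
SFN: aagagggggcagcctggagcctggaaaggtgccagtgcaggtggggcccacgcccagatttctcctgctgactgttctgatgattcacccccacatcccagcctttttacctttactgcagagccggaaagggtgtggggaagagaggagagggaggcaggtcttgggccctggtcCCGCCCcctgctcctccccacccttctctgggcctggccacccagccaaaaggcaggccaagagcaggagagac
CDKN1A: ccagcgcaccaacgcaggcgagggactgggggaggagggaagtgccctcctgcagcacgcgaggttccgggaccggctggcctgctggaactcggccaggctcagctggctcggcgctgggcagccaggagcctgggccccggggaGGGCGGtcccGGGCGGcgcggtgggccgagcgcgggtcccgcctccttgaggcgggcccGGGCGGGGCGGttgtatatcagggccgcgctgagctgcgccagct
TP53I3: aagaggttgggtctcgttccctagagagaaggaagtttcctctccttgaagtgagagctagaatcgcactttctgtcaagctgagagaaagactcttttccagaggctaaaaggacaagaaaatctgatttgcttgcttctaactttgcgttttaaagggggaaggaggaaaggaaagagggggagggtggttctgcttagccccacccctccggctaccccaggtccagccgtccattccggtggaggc
DDB2: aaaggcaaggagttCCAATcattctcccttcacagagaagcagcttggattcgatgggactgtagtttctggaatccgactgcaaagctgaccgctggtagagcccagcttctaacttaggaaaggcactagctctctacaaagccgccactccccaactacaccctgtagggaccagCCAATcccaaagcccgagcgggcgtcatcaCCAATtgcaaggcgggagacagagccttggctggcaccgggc
The 4 windows had little in common by these motifs. SFN held 1 GC box that begins 74 bases before the start (position -74), CDKN1A held 4 (from -104 to -40, with overlapping letters in the last pair), DDB2 held 3 CCAAT boxes (from -236 to -42), and TP53I3 held neither. Over 14239 windows of the same length, 57.5% held a GC box and 34.4% a CCAAT box. The 10-letter p53 consensus was in none of the 4 windows and in 5.10% of all, and its paired form in 0.0211% of all. The E2F motifs TTTGGCGC and TTTCCCGC (0.695% and 1.92% of all windows) and the NF-kB consensus (5.78%) were also not found in these 4. All motifs were searched on both strands, and no match says only that these letters are not in these windows.

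Set beside unarrested cells with DHT, whose medium differs, the S arrests passed at 2 genes (0.0109%), SFN and DAB1. DAB1, an adaptor gene of reelin signalling, was lower (S minus CDT + DHT -3.43) and dim on the S arrays, from 0.01 to 1.54. It was also lower in early G1 than in CDT + DHT (-1.69 ± 0.60, not passing). In the late G1 arrest it measured 0.09, 0.01 and 0.01, so low DAB1 was not particular to the S arrests. SFN was 4.25, 5.06 and 4.15 in CDT + DHT, and the S arrests were higher by 3.40 ± 0.54 (SE; adjusted limma p 0.037). The S arrests were higher than CDT + DHT by 3.07 at IER3, 2.24 at CDKN1A, 2.26 at TP53I3 and 1.68 at DDB2, with adjusted limma p of 0.0505, 0.127, 0.132 and 0.125, so these did not pass. CDKN1A in CDT + DHT (6.73, 6.45 and 6.12) lay below every S array, with replicate 3 inside the early G1 range and the other two above it. Early G1 minus CDT + DHT was -0.61 at SFN, -0.49 at IER3, -1.22 at CDKN1A and -0.70 at DDB2, and none of the 5 genes passed there. These comparisons share arrays with the one above and are given for their own values.

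The p53 targets were placed in lists by role, and only SFN, CDKN1A, TP53I3 and DDB2 rose among them. Of the arrest and feedback targets, 17 of 18 were tested, 2 rose (SFN and CDKN1A), 0 fell, and the median difference was 0.61, against -0.01 over all genes. GADD45A, a stress sensor that binds p21 and PCNA, measured 4.95 and 5.97 in early S, 5.17, 7.14 and 7.04 in late S, and 5.01, 2.64 and 5.07 in early G1. Its difference was 1.72 ± 0.59 (SE) and its arrays overlapped. MDM2, the ubiquitin ligase that p53 induces and that degrades p53, measured 5.02 and 7.06 in early S, 5.01, 7.59 and 6.67 in late S, and 5.18, 3.97 and 4.46 in early G1. Its replicates within each S arrest differed by over 2 units, and its difference of 1.69 ± 0.75 (SE) did not pass (adjusted limma p of 1). In each compared group the lowest array for MDM2 was the one highest on the shared axis. The same was true of RRM2B, CDK1 and CCNA2, while MCM5 was highest on those arrays. At the low end of the list stood PTCHD4, at -1.41 ± 0.77.

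The death targets had 13 of 14 members tested, 1 rise (TP53I3), 0 falls and a median of 0.54. BBC3, which encodes PUMA, the BH3-only protein that disables the survival members of the BCL2 family, measured 5.31 and 5.47 in early S, 6.91, 6.86 and 6.82 in late S, and 3.57, 3.55 and 4.98 in early G1. All S arrays were above early G1, with late S above early S, and the difference was 2.09 ± 0.45 (SE; adjusted limma p 0.274). BAX, the pore-forming partner, stood at 1.02 ± 0.69, FAS, a death receptor, at 0.09 ± 0.54 and PMAIP1, which encodes NOXA, at -0.34 ± 0.64. The wider list of the BCL2 family and caspases had 20 members tested, 0 rises and 0 falls, and a median of 0.16 that turned negative without early G1 replicate 2.

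Repair and metabolism targets had 15 of 17 members tested, with 1 rise (DDB2), 0 falls and a median of 0.60. XPC, the other damage sensor of nucleotide excision repair, stood at 0.97 ± 0.68, and POLH, a polymerase that copies past lesions, at 1.02 ± 0.68. RRM2B, the p53-induced small subunit of ribonucleotide reductase, was at 0.57 ± 1.11 (SE). Its arrays ran from 0.10 to 5.52 within late S and from 0.02 to 4.89 within early G1, and its sign turned without early G1 replicate 2 (-0.84) or late S replicate 2 (-0.07). The medians of all 3 p53 lists stayed above 0 in the 20 alternatives, with lows of 0.22 for arrest, 0.30 for death and 0.24 for repair. This was not particular to them. It also held for the lists of CDK inhibitors (low 0.04), G1 kinases and cyclins (0.03) and E2F and DP factors (0.11). The NF-kB, immediate early and interferon lists kept their sign as well. The alternatives reuse the same arrays.

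**Figure D3:**
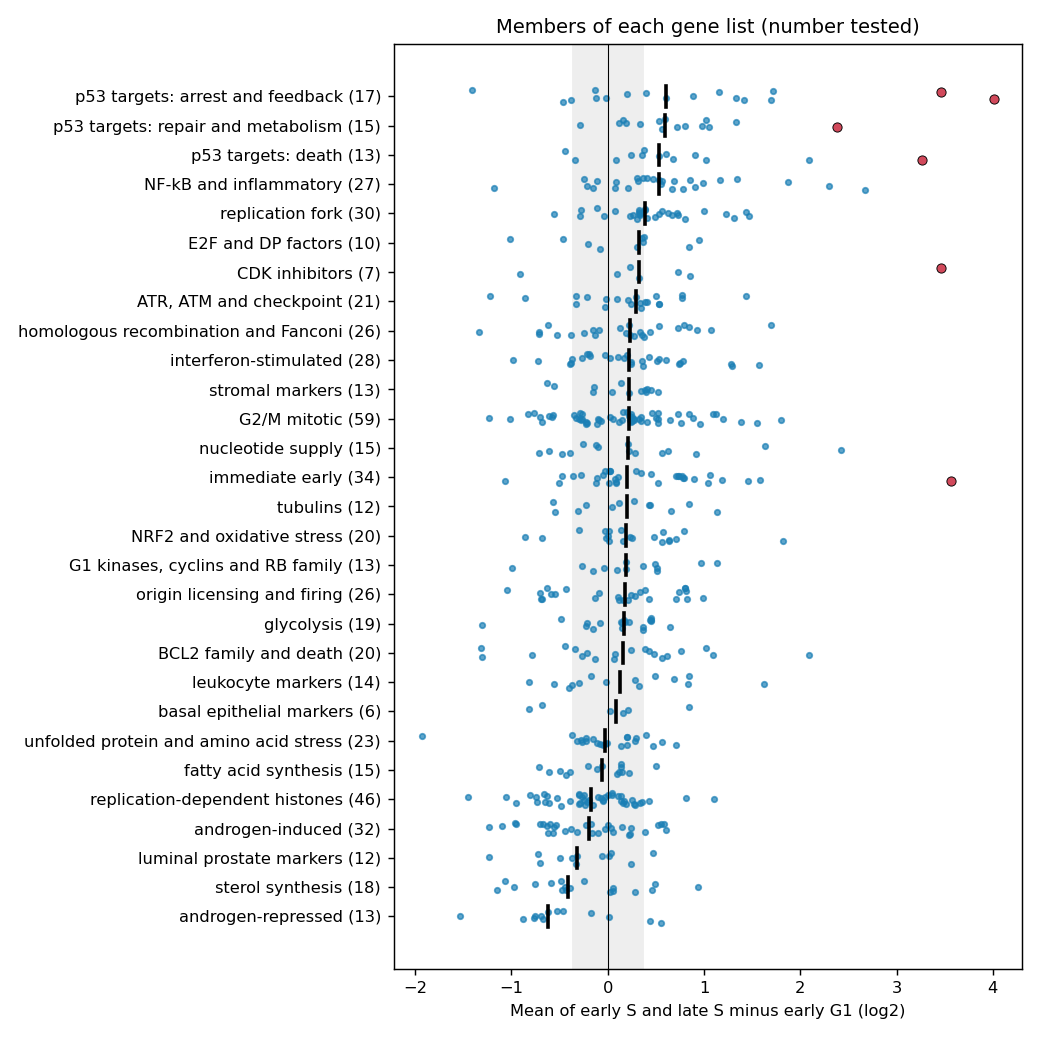
Each row is a gene list with the number of members tested, each point a member's mean of early S and late S minus early G1 (log2, x axis), red where it passed, and the black bar the list median; the grey band spans the quartiles of all genes (-0.36 to 0.37). The p53 lists and the NF-kB list have medians of 0.53 to 0.61 and the androgen-repressed list the lowest, -0.62; the band shows single genes and is no measure of a median's spread.

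The DNA synthesis genes that RB and E2F control did not pass. RRM2, the S-phase subunit of ribonucleotide reductase, came closest of all genes below the threshold. It measured 7.30 and 7.91 in early S, 6.40, 7.05 and 6.44 in late S, and 4.27, 4.20 and 5.61 in early G1. Every S array was above early G1, early S above late S. The difference was 2.43 ± 0.44 (SE), with an adjusted limma p of 0.0715. RRM2 passed in 6 of the 20 alternatives, among them quantile normalization (0.033) and the fit without early G1 replicate 3 (0.0386). TYMS, thymidylate synthase, measured 7.20 and 8.61 in early S, 7.79, 8.25 and 8.13 in late S, and 6.21, 5.82 and 6.99 in early G1, again without overlap. Its difference was 1.64 ± 0.42 (SE; adjusted limma p 0.86). TYMSOS, which lies antisense to TYMS, stood at 2.09 ± 0.44, and whether its probes also take up signal of TYMS was not tested. TK1, the salvage thymidine kinase, was at -0.48 ± 0.53, and the nucleotide supply list (15 of 17 tested) had 0 rises, 0 falls and a median of 0.21. That median turned negative in 4 of 20 alternatives, the fits without late S replicate 2, without early G1 replicate 2, without late S replicate 1 and early G1 replicate 2 together, and on brighter genes only.

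Of 30 replication fork genes 0 rose and 0 fell, with a median of 0.39. PCNA, the sliding clamp and also a p53 target, measured 6.74 and 8.16 in early S, 7.09, 7.87 and 7.98 in late S, and 6.51, 5.75 and 6.46 in early G1. Its arrays did not overlap, and its difference was 1.31 ± 0.44 (SE; adjusted limma p of 1). LIG1, the ligase that seals Okazaki fragments, likewise had no overlap, at 1.23 ± 0.49. Without early G1 replicate 2 the list median was -0.05, so its sign rests on that array.

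Origin licensing and firing genes (26 tested, 0 rose, 0 fell) had a median of 0.18, which turned negative without late S replicate 2 or early G1 replicate 2. MCM2, of the replicative helicase, was at 0.71 ± 0.42, and ORC2, of the origin recognition complex, at -0.70 ± 0.59. MCM5 ran from 4.07 to 5.21 in early S, from 5.42 to 6.94 in late S and from 4.14 to 6.94 in early G1, with a difference of -0.13 ± 0.61 that turned positive without early G1 replicate 2 (0.55), early S replicate 2 (0.16) or late S replicate 2 (0.09), with array weights (0.44) and with the 5 S arrays weighted equally (0.04). E2F1 stood at 0.85 ± 0.53 and the E2F and DP list (10 tested, 0 rose, 0 fell) at a median of 0.33. Replication-dependent histones, whose transcripts are made and kept mainly during DNA synthesis, had 46 of 51 members tested, 0 rises, 0 falls and a median of -0.17. The histone median was 0.10 in early S and -0.63 in late S against early G1, and without early S replicate 2 the pooled median was 0.17.

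The cyclins and their kinases overlapped between S and early G1. CCND1, the partner of CDK4 and CDK6, measured 5.27 and 7.06 in early S, 3.29, 6.14 and 5.26 in late S, and 6.02, 6.58 and 6.98 in early G1 (difference -0.99 ± 0.63). CCNE2, which drives S-phase entry with CDK2, stood at 1.14 ± 0.62. CCNE1 was at -0.26 ± 0.54, and at 0.14 without late S replicate 1 or early G1 replicate 3. CDK1, the mitotic kinase, ran from 4.23 to 6.78 in the S arrays and measured 5.80, 1.75 and 4.26 in early G1. Early G1 replicate 2 was thus its lowest array, and the difference was 1.55 ± 0.72. CCNB1, its cyclin, was at -0.35 ± 0.43. CCNA2, another S and G2 cyclin (0.36), and MKI67, the proliferation marker Ki-67 (0.25 ± 0.68), both turned negative without early G1 replicate 2 (-0.68 and -0.01), early S replicate 2 (-0.12 and -0.26) or late S replicate 2 (-0.17 and -0.09). Of the G2/M mitotic genes, MYBL2 (1.80 ± 0.64) and CDC25B (1.38 ± 0.49) lay above early G1 on every S array and did not pass. In the 59 G2/M mitotic genes tested 0 rose and 0 fell, and the median was 0.22. It was below 0 in 5 of 20 alternatives, each leaving out or down-weighting arrays, those without early S replicate 2, late S replicate 2 or early G1 replicate 2 included.

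CDKN1A was the single riser among 7 CDK inhibitors tested (0 fell, median 0.32). CDKN1C, which encodes p57, was at 0.86 ± 0.51, CDKN1B, which encodes p27, at 0.32 ± 0.44 and CDKN2A, which encodes p16, at -0.91 ± 0.73. The checkpoint kinases and their partners (21 of 23 tested) had 0 rises, 0 falls and a median of 0.29. CHEK1, the kinase below ATR, was at 0.78 ± 0.62, CHEK2, the kinase below ATM, at -0.86 ± 1.02 and CLSPN, the adaptor that presents CHEK1 to ATR, at 1.44 ± 0.76. The checkpoint median turned to -0.43 in its lowest alternative, and its sign also turned without early S replicate 2, late S replicate 2 or early G1 replicate 2. Homologous recombination and Fanconi genes (26 of 32 tested) had 0 rises, 0 falls and a median of 0.23, negative without early G1 replicate 2.

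Of the NF-kB and inflammatory genes 27 of 28 were tested, with 0 rises, 0 falls and a median of 0.53 that stayed above 0 in all 20 alternatives. SAA1, an acute-phase protein, measured 4.02 and 3.64 in early S, 5.65, 5.57 and 5.67 in late S, and 2.00, 2.39 and 2.91 in early G1, without overlap (2.30 ± 0.58, adjusted limma p 0.86). Its near-identical neighbour SAA2 stood at 2.85 ± 0.54 (adjusted limma p 0.106), and the array may not tell the pair apart. CCL20, a chemokine, measured 0.95 and 3.61 in early S, 3.80, 5.68 and 4.98 in late S, and 1.92, 0.55 and 0.16 in early G1. Early S replicate 1 lay below early G1 replicate 1, and the difference was 2.68 ± 0.62. Without early G1 replicate 1 the list median was 0.23. Of 34 immediate early genes tested IER3 alone rose, 0 fell, and the median was 0.20. CCN2, a matrix protein gene, was at 1.46 ± 0.55 and KLF4, a transcription factor, at 1.04 ± 0.47.

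S100P and CLU also lay above early G1 on all 5 S arrays without passing. S100P, a calcium-binding protein gene, measured 7.64 and 6.53 in early S, 6.42, 6.80 and 7.71 in late S, and 3.54, 2.82 and 4.82 in early G1 (3.30 ± 0.65, adjusted limma p 0.144). CLU, which encodes the secreted chaperone clusterin, measured 6.42 and 6.50 in early S, 5.62, 6.31 and 6.57 in late S, and 3.92, 3.36 and 4.88 in early G1 (2.26 ± 0.45, adjusted limma p 0.144). In CDT + DHT it was 6.83, 7.13 and 6.71, near the S arrays, and early G1 minus CDT + DHT was -2.84 ± 0.50 (adjusted limma p 0.289). The same early G1 difference from CDT + DHT was -0.29 at S100P. PTGES likewise had no overlap. It measured 7.46 and 7.99 in early S, 8.56, 8.80 and 8.44 in late S, and 5.40, 5.49 and 6.99 in early G1. Its difference was 2.20 ± 0.47 (adjusted limma p 0.256). RNASE2, dim in early G1, also had no overlap, at 2.02 ± 0.50 (adjusted limma p 0.86).

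Among genes lower in the S arrests, NMRAL2P, a pseudogene transcript, had the smallest p. It measured 0.00 and 0.01 in early S, 0.01, 0.84 and 0.01 in late S, and 3.13, 2.41 and 2.22 in early G1 (-2.44 ± 0.57, adjusted limma p 0.533). TAF6, a subunit of the general transcription factor TFIID, was next at -1.89 ± 0.48 (adjusted limma p 0.86). Values this close to 0 are intensities of a few units or less, where the log2 difference depends on the added constant.

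Androgen-responsive genes had 0 rises and 0 falls. The androgen-induced list (32 of 39 tested) had a median of -0.20 and the androgen-repressed list (13 of 17 tested) one of -0.62, so both were on the same side. KLK3 ran from 9.06 to 9.37 in early S and from 9.17 to 9.76 in late S, and measured 9.66, 9.69 and 10.85 in early G1 (-0.70 ± 0.45). KLK2, a related kallikrein, was at -0.32 ± 0.38. ACKR3, an androgen-repressed chemokine receptor, stood at -1.53 ± 0.48 and was lowest in early S. Sterol synthesis genes (18 of 24 tested, 0 rose, 0 fell) had a median of -0.41, which was 0.03 without late S replicate 1. No member rose or fell in the lists for interferon, fatty acid synthesis, unfolded protein stress, glycolysis, NRF2 and tubulins, with medians from -0.06 to 0.22 that kept their sign in 13 to 20 of the 20 alternatives, nor among the G1 kinases and cyclins (0.19).

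The difference of each S arrest from early G1 was read from the same fit. Both share the early G1 arrays and so are given side by side. Each arrest was made with 1 drug, so drug and arrest point cannot be told apart. Late S minus early G1 passed at 9 genes, all higher (0.0489% of genes): SFN, IER3, DDB2, HMOX1, GSN, CDKN1A, TP53I3, CCL20 and BBC3. Early S minus early G1 passed at 1 gene (0.00543%), which was lower, OR1G1. Early S had 2 arrays and late S 3, so its standard errors were larger (0.66 against 0.59 at SFN). The counts are therefore no measure of how much each arrest did. At an unadjusted p under 0.05 limma gave 657 for late S (3.57%) and 501 for early S (2.72%). The 5 genes of the pooled comparison were above early G1 in both: SFN by 3.60 and 4.42, IER3 by 2.89 and 4.24, CDKN1A by 3.28 and 3.64, TP53I3 by 3.00 and 3.52 and DDB2 by 1.99 and 2.77, early S first. Their adjusted limma p in early S ran from 0.21 (SFN) to 0.921 (DDB2).

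Several genes were nearer to early G1 in early S than in late S, although none of them passed when the S arrests were tested against each other. HMOX1, which encodes the heme-degrading enzyme induced by oxidants, measured 5.09 and 5.12 in early S, 7.95, 7.50 and 7.87 in late S, and 4.04, 4.83 and 5.00 in early G1. Its early S arrays were next to early G1 and its late S arrays stood apart. Late S minus early S was 2.67 ± 0.56 (SE), with an adjusted limma p of 0.372, so the difference between the S arrests did not pass. GDF15, a stress-induced cytokine and p53 target, measured 8.40 and 8.55 in early S, 10.44, 10.42 and 10.54 in late S, and 7.95, 8.41 and 8.05 in early G1. Late S minus early S was 1.99 ± 0.50 (adjusted limma p 0.775). GSN, which encodes the actin-severing protein gelsolin and was singled out after its values were seen, had means of 4.92 ± 0.45 (SD, n = 2) in early S, 8.01 ± 0.38 (n = 3) in late S and 4.92 ± 0.39 (n = 3) in early G1. Its late S minus early S difference was 3.09 ± 0.56 (SE; adjusted limma p 0.212).

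**Figure D4:**
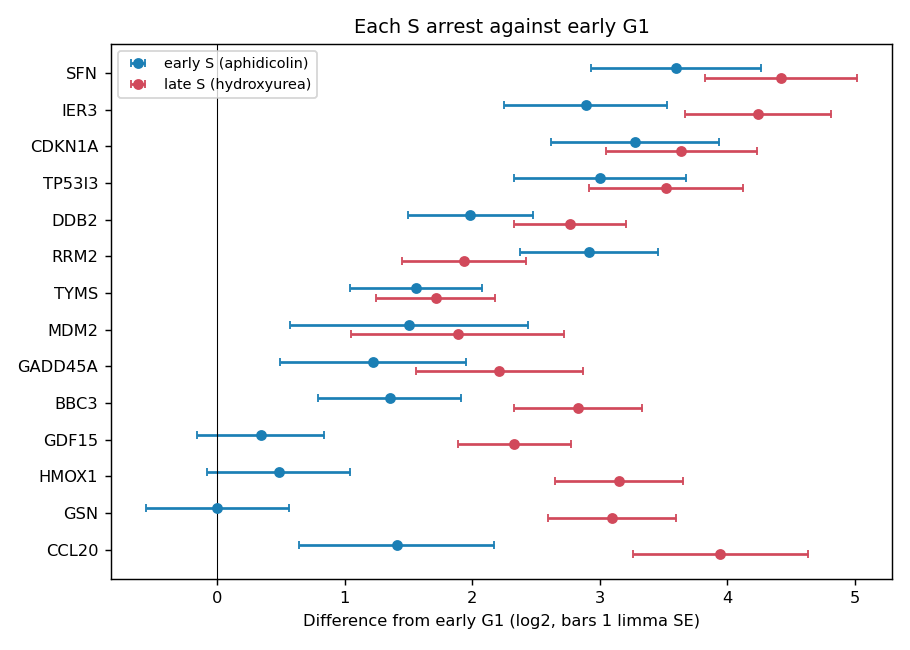
For 14 genes, early S (aphidicolin) minus early G1 and late S (hydroxyurea) minus early G1 are plotted on the x axis (log2), with bars of 1 limma SE. SFN, IER3, CDKN1A, TP53I3 and DDB2 lie to the right for both drugs, while HMOX1, GSN and GDF15 are between 0.00 and 0.48 for early S and at 2.33 to 3.15 for late S.

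Tested directly, late S and early S differed at 1 gene (0.00543%), OR1G1, an olfactory receptor gene, by 4.53 ± 0.60 (SE; adjusted limma p 0.00629). It measured 0.00 and 0.02 in early S, 5.18, 3.61 and 4.82 in late S, and 3.83, 4.66 and 3.42 in early G1, so among these 8 arrays the early S pair was near 0. The G2/M arrays, whose cells had received aphidicolin for 15 h and then nocodazole, were near 0 as well (0.01, 0.00 and 0.07). An intensity near 0 has no exact log2 difference, so the size of 4.53 depends on the added constant of 1. At an unadjusted p under 0.05 limma gave 1077 genes (5.85%), 633 of them higher in late S. The count of 1 fell to 0 without early S replicate 1, early S replicate 2 or late S replicate 3 and was 2 without late S replicate 2. Without single arrays, late S against early G1 gave 3 (without late S replicate 2), 2 (late S replicate 3), 0 (early G1 replicate 1), 2 (early G1 replicate 2) and 6 to 10 for the other 4. Early S against early G1 gave 0 without early S replicate 1 or 2, late S replicate 3 or any early G1 replicate, and 1 without late S replicate 1 or 2.

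Leaving out each of the 8 arrays kept the differences at 3.69 to 4.26 for SFN, 3.44 to 3.63 for IER3, 2.98 to 3.96 for CDKN1A, 2.80 to 3.62 for TP53I3 and 2.20 to 2.68 for DDB2. The number past the threshold was 0 without early S replicate 1, early G1 replicate 1 or early G1 replicate 2, and 1 (SFN) without early S replicate 2. It was 2 (SFN and IER3) without late S replicate 2 or late S replicate 3, 5 without late S replicate 1 and 6 without early G1 replicate 3. Adjusted limma p in these fits ran from 0.0159 to 0.0979 for SFN and from 0.0159 to 0.528 for TP53I3. Late S replicate 1 and early G1 replicate 2, the highest of the 8 arrays on the shared axis, were also left out together. SFN was then at 4.11 and CDKN1A at 3.56 (both adjusted limma p 0.126), and no gene passed. In a fit on the compared groups alone, the differences were the same and none passed (SFN adjusted limma p 0.118). That fit had fewer arrays behind the spread, and the compared groups were also looser than most others. The lowest r within a group was 0.608 in late S, 0.657 in early G1 and 0.749 in early S. It was 0.863 in G2/M, 0.870 in CDT + DHT, 0.858 in late G1 and 0.629 in CDT. Which of these mattered was not tested.

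**Figure D5:**
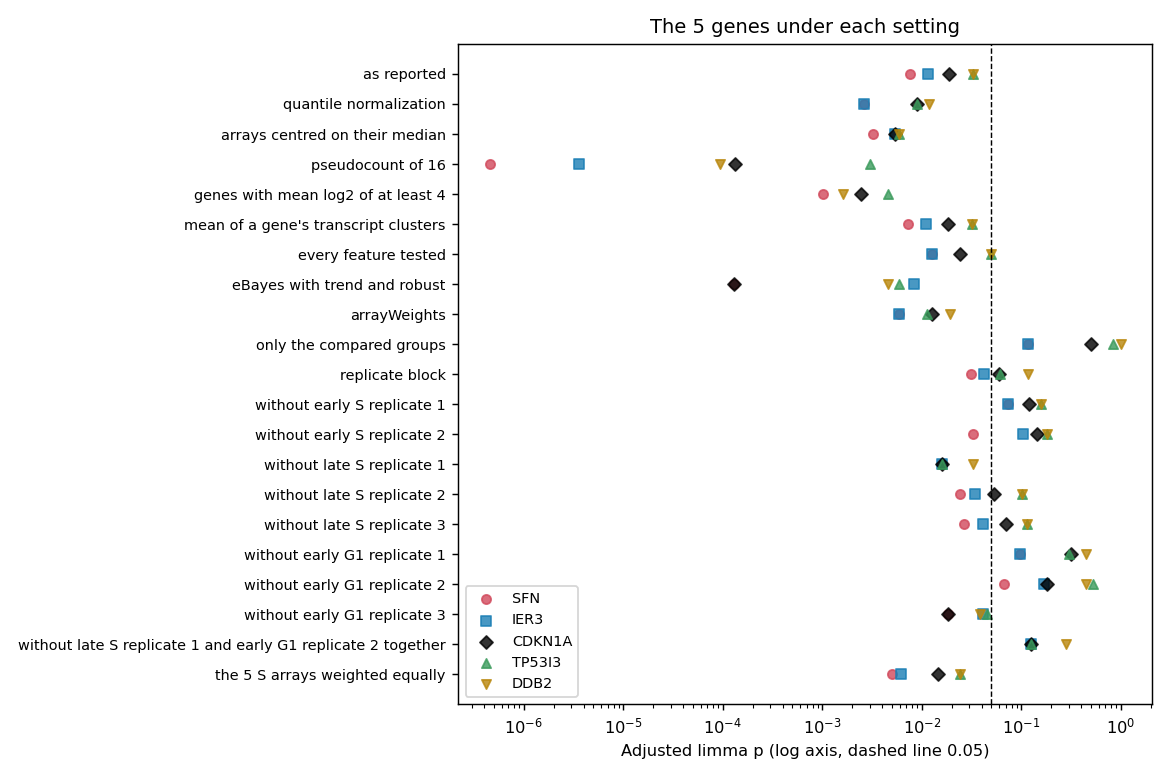
Each row is a setting, and each symbol the adjusted limma p of 1 of the 5 genes on a log axis, with the threshold of 0.05 dashed. Symbols to the left of the line pass; SFN passed in 15 of 20 alternatives, IER3 in 13 of the 19 that tested it, and CDKN1A, TP53I3 and DDB2 in 11 of 20.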

How the data were processed

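Affymetrix human gene arrays of LNCaP RNA (Trizol, NuGEN Ovation Pico amplification) were summarised by the authors; the submitters' processing notes name Expression Console 1.1. The deposited values were linear intensities, as read from their range. How probes were summarised, or arrays normalized, is not given in the sources used here.

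Of 33297 features, 19460 had 1 symbol in the platform annotation, 1754 several and 12083 were not listed; 19429 matched RefSeq by gene ID. The brightest transcript cluster was used for 769 genes with several, which left 18417 genes. Tests used limma 3.58.1 in R 4.3.3 on log2(intensity + 1), fitting a mean for each group over all 20 arrays at once, with two-sided tests and Benjamini-Hochberg adjustment over all genes with a threshold of 0.05. The procedure was tested on simulated data with independent noise for each gene and array, so that test does not cover scatter shared between genes. The number of arrays limits the precision.

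Genes were named by rule: those past the threshold, the next by p without overlap up to 15 per direction, up to 4 list members past the threshold and 2 not past it, a fixed set, and genes that differed between the S arrests. GSN and some other list members were named outside the rule, after their values were seen. Not all genes that the rule gave are named in the results: many of the lower genes and some list members were left out. The members and the 29 lists were chosen with earlier results of these data known. Alternatives were quantile normalization, median centring, a constant of 16, a filter on dim genes, other gene summaries, other variance settings, a replicate block, other weights and left-out arrays.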

Additional observations from a re-analysis of the deposited data

Results flagged for a closer look

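OR1G1 differed between the S arrests in their distance from early G1: late S minus early S was 4.53 on the log2 scale. The early S arrays measured 0.00 and 0.02, the late S arrays 5.18, 3.61 and 4.82, and the early G1 arrays 3.83, 4.66 and 3.42. The G2/M arrays (aphidicolin for 15 h, then nocodazole for 9 h) measured 0.01, 0.00 and 0.07. CDT measured 5.68, 4.36 and 5.32 and CDT + DHT 4.33, 4.65 and 3.78. With intensities near 0 in early S, the size of the difference depends on the added constant of 1. The adjusted limma p of the difference was 0.00629. The cause was not tested.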

How the results depend on the processing

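Of 2468 comparisons of a result with an alternative, 2334 were labelled the same, 70 moved, 38 weaker, 26 stronger and 0 reversed. Differences as large as those of the called genes could hardly turn round, so the 0 is no measure of their stability. The count of genes higher in the S arrests (5) was 17 with a constant of 16, 10 on genes with a mean log2 of at least 4, 10 with trend and robust settings, 0 in a fit on the compared groups alone and 0 without late S replicate 1 and early G1 replicate 2 together. Leaving out 1 array gave 0 to 6. The count of lower genes was 0 in all 20 alternatives. Early S against early G1 (1) gave 0 after quantile normalization, after median centring, with every feature tested, on the compared groups and without the 2 arrays together. It gave 8 with a constant of 16, 2 on brighter genes, 4 with trend and robust settings and 0 to 1 without 1 array. Late S against early G1 (9) gave 21 with a constant of 16, 14 with trend and robust settings, 32 with array weights, 0 on the compared groups, 0 without the 2 arrays together and 0 to 10 without 1 array. Late S against early S (1) gave 4 with a constant of 16, 3 with trend and robust settings, 2 with array weights, 0 on the compared groups and 0 to 2 without 1 array. Fewer arrays entered the fits on the compared groups and those that leave arrays out, and the compared groups were looser than most others. The cause of these changes was not tested.

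With the replicate number as a block, the S arrests against early G1 gave 2 (SFN and IER3), early S 0, late S 8 and late S against early S 1. Same-numbered arrays of different groups had deviations from their group means correlated at -0.72 to 0.59 (median -0.38), and other pairs at -0.59 to 0.59 (median 0.14). Deviations within a small group are tied to each other and follow the shared axis. These correlations therefore cannot tell whether the numbers pair the samples.

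Limits: early S had 2 arrays, and where 1 was left out the other was assumed to vary like the other groups. The filter on brighter genes left no basal or leukocyte marker and did not test IER3. The median of all genes shifted by over 0.1 without late S replicate 1 (0.11), early G1 replicate 2 (-0.14) or early G1 replicate 3 (0.14).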

Other observations

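The arrays of the other arrests with DHT add values for the 5 genes. After aphidicolin for 15 h and nocodazole for 9 h (G2/M), SFN measured 6.02, 6.87 and 6.42, CDKN1A 7.52, 8.13 and 7.54, TP53I3 5.87, 6.15 and 5.66 and DDB2 6.92, 6.60 and 6.83. IER3 there was at 1.84, 0.24 and 2.35, below its early G1 range of 1.88 to 2.27 on 2 arrays and just above it on 1. In the late G1 arrest (roscovitine, 24 h) SFN measured 1.39, 0.46 and 1.61 and IER3 0.00, 0.01 and 0.04, below every early G1 array. CDKN1A in late G1 was at 6.15, 5.66 and 6.15 and DDB2 at 4.84, 4.74 and 5.10, inside their early G1 ranges. TP53I3 in late G1 was at 3.89, 3.69 and 4.69, above every early G1 array (3.00, 1.87 and 3.51). No test was made of these values.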
